A study of Mus musculus with 6 samples.

Results

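The AP-1 transcription factor genes described here are Fos, Fosb, Fosl1, Fosl2, Jun, Junb, Jund and Atf3, 8 of the 21883 protein-coding genes examined. They were listed by gene name, with earlier results of these data known, and no measured value enters the rule. For each gene the locus was its RefSeq span in the GRCm38/mm10 mouse build with up to 50 kb on each side, shortened where the next protein-coding gene began. All peaks of histone H3 lysine 27 acetylation (H3K27ac) in these 8 loci were taken from 6 libraries and placed by position. A peak was counted at a gene end when it overlapped a window reaching 1000 bp to each side of the first or last base of the gene, in the body when it lay otherwise inside the gene, and in the flank elsewhere.

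AP-1 is a dimer of basic leucine zipper proteins that binds DNA through paired basic regions. Fos proteins must dimerise with a Jun protein or another partner, whereas Jun proteins can also form dimers with each other, and Atf3 is a related stress-induced factor that can dimerise with Jun proteins. Fos, Fosb, Jun, Junb and Atf3 are immediate early genes, switched on within minutes of growth factor or stress signals through MAP kinases and promoter-bound factors such as serum response factor and CREB; Jund is expressed more steadily. In blood stem cells JunB is known to restrain proliferation and myeloid expansion. H3K27ac marks active promoters and enhancers.

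The mark was profiled by CUT&RUN, an assay in which an antibody-tethered nuclease cuts out marked chromatin for sequencing, in primary hematopoietic stem cells from mouse bone marrow. The wild-type group comprised 3 libraries, and the knockout group 3 libraries of mice lacking Ppp2ca, which encodes the catalytic alpha subunit of protein phosphatase 2A. The sources used here do not give the deleted part of Ppp2ca, a Cre driver, the strain, the age or the sort gate. The libraries were treated as separate mice, which no label states for any of them, so the p-values measure only the spread between these libraries.

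The knockout lists were longer throughout the genome. Wild-type lists held between 21917 and 29945 peaks and covered 7.25 to 9.60 Mb, and knockout lists held between 34016 and 50453 peaks and covered 14.5 to 22.7 Mb. Read totals are not in these lists. The genome-wide background solved from the peaks, in fragments per 200 bp, was 0.498 to 0.584 in wild-type libraries and 0.465 to 0.827 in knockout libraries, and the median peak summit held 5 fragments in each wild-type library and 6, 6 and 9 fragments in knockout libraries 1 to 3. Peaks were present at the ends of Ppp2ca in all 6 libraries, with 729 to 1077 bp covered in wild-type and 1338 to 1381 bp in knockout libraries, which does not check the deletion.

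Promoter sequences are shown for Fos, Fosb, Jun and Atf3, the 4 loci mapped by library below. RefSeq (GRCm38.p6) gave a promoter for 7 of the 8 genes, all but Fosl1. Each line holds the 250 bases before the annotated start, 5′ to 3′ on the strand of the gene, and capitals mark matches to the motifs named after the sequences; a match on the opposite strand reads CCGCCC or CGTCA.
Fos (chr12:85473640-85473889, plus strand): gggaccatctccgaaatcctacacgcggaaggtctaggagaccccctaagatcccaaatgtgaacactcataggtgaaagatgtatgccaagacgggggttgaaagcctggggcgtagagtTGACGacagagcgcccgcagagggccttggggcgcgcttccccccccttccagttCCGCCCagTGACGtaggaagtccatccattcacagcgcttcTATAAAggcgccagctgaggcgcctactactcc
Fosb (chr7:19310046-19310295, minus strand): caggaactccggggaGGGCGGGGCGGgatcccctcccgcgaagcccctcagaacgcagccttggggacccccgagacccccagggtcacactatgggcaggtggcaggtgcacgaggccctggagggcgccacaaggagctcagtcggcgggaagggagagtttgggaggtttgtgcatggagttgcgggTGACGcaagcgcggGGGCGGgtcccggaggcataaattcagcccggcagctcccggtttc
Jun (chr4:95052223-95052472, minus strand): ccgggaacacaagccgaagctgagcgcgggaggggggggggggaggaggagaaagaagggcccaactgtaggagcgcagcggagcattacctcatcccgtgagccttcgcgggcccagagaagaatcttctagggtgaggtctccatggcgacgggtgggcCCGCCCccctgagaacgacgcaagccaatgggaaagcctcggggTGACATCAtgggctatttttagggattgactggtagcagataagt
Atf3 (chr1:191183334-191183583, minus strand): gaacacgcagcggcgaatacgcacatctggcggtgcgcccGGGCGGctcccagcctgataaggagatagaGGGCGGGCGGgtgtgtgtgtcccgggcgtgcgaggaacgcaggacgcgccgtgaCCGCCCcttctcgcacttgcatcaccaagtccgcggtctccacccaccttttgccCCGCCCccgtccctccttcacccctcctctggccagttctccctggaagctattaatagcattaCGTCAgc

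The motifs were searched on both strands of the window from 250 bases before to 50 bases after the start. The GC box GGGCGG, the core of Sp1-type sites, was present in 5 of the 7 AP-1 promoters (Fos, Fosb, Fosl2, Jun and Atf3) and in 35.7% of all 32851 promoters. A match to TATAAA was present in Fos, 33 bases before the start, and in Junb, at its start, against 13.6% of all promoters. TGACG, the first part of the cyclic AMP response element bound by CREB and ATF factors, was present in 4 of 7 (Fos, Fosb, Junb and Atf3) and in 20.8% of all promoters; in Fos it began 129 and 66 bases before the start. TGACATCA, a form of that element, was present in Jun, 45 bases before the start, and in 3.62% of all promoters. These last 2 searches were added after the sequences were seen, and the shorter one overlaps the full element.

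No window of the 7 held the full element TGACGTCA (1.79% of all promoters), the AP-1 site TGACTCA (5.20%) or a CArG box, the serum response factor motif (1.63%). No match says only that these letters are not in this window. G+C content lay between 58.7% and 68.3% in 6 of the 7 windows and was 46.7% in Jund, beside a median of 52.7% over all promoters. In Jund the recurrent acetylated region was centred 1.1 kb downstream of the annotated start, and no library had a peak in its promoter window.

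More sequence in the AP-1 loci lay under H3K27ac peaks in the knockout than in the wild-type libraries, through both wider and additional peaks. Wild-type libraries 1 to 3 had a gene-end peak at 5, 6 and 4 of the 8 genes and knockout libraries 1 to 3 at 8, 7 and 7. The means were 5 ± 1 and 7.33 ± 0.577 genes (SD, n = 3 each), a ratio of 1.47, beside a ratio of 1.53 for all genes. At this setting the ratio for the number of marked AP-1 genes was thus no larger than that for all genes. On average 62.5% of the AP-1 genes were already marked in wild type, against 27.5% of all genes. The AP-1 count could not rise above 8 genes, and the part of this limit in the ratio was not tested. AP-1 and all-gene ratios were 1.82 and 1.64 with a window of 500 bp and 1.44 and 1.45 with 2 kb. With each list cut to the length of the shortest they were 1.43 and 1.42. At a q-value of 0.05 or less they were 4.75 and 3.40.

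The difference was larger in covered length than in the number of marked genes. Peaks covered 6166, 6995 and 4816 bp of the 8 loci in wild-type libraries 1 to 3 and 20716, 13320 and 19827 bp in knockout libraries 1 to 3, so the groups did not overlap. The means were 5992 ± 1100 bp and 17954 ± 4038 bp (SD, n = 3 each), a ratio of 3.00. The same ratio was 2.46 over the loci of all genes and 2.44 over those of 11 other early response genes of the Egr, Nr4a, Ier, Btg2 and Zfp36 group; whether these ratios differ was not tested. The genome background of the libraries was 0.499, 0.584 and 0.498 fragments in wild-type libraries 1 to 3 and 0.738, 0.465 and 0.827 in knockout libraries 1 to 3; its part in the coverage was not tested. In such bulk profiles, more cells with a mark and more mark per cell cannot be told apart.

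**Figure D1:**
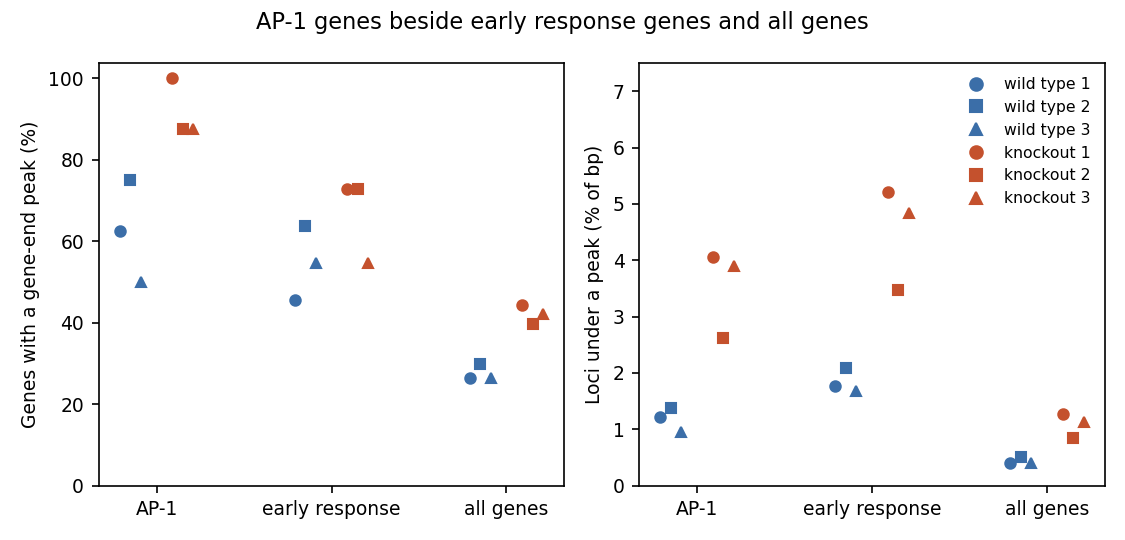
Left, percentage of genes with a gene-end H3K27ac peak; right, percentage of locus bp under a peak; each point is 1 library, for the 8 AP-1 genes, 11 early response genes and all 21883 genes. All 3 sets were higher in knockout libraries, except that marked early response genes overlapped between groups; the AP-1 loci were covered at 0.945% to 1.37% in wild-type and 2.61% to 4.07% in knockout libraries.

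The added peaks lay mainly in the flanks, which on average also held most of the wild-type peaks. The flanks make up most of the length of these loci, and peaks were not counted by place over all genes. The loci held 16, 19 and 15 peaks in wild-type libraries 1 to 3 and 42, 34 and 38 in knockout libraries 1 to 3. Flank peaks numbered 10, 9 and 10 against 30, 20 and 24, gene-end peaks 6, 8 and 5 against 11, 13 and 11, and body peaks 0, 2 and 0 against 1, 1 and 3. The number of peaks was 2.28 times as high in the knockout group, beside 1.73 times over the loci of all genes.

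When each list was shortened to its 21917 strongest peaks by p-value, the length of the shortest list, the ratio of covered bp fell to 2.46 in the AP-1 loci, 2.29 in the early response loci and 1.99 in the loci of all genes. The 3 knockout libraries still covered 10466 to 16772 bp of the AP-1 loci and the wild-type libraries 4816 to 6166 bp.

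Gene-end coverage was tested gene by gene over all 11084 genes with a gene-end peak in any library, by a two-sided exact permutation test whose smallest p with 3 against 3 libraries is 0.1. No gene could pass a threshold of 0.05, so results are given as values and as whether the groups overlapped. Fos, Jun, Junb and Atf3 had more covered bp in every knockout library than in any wild-type library, 4 of 8, as did 50.6% of all genes tested. No AP-1 gene had fewer covered bp in every knockout library, against 0.0361% of all genes. At the gene ends the share of AP-1 genes was therefore at the background.

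**Figure D2:**
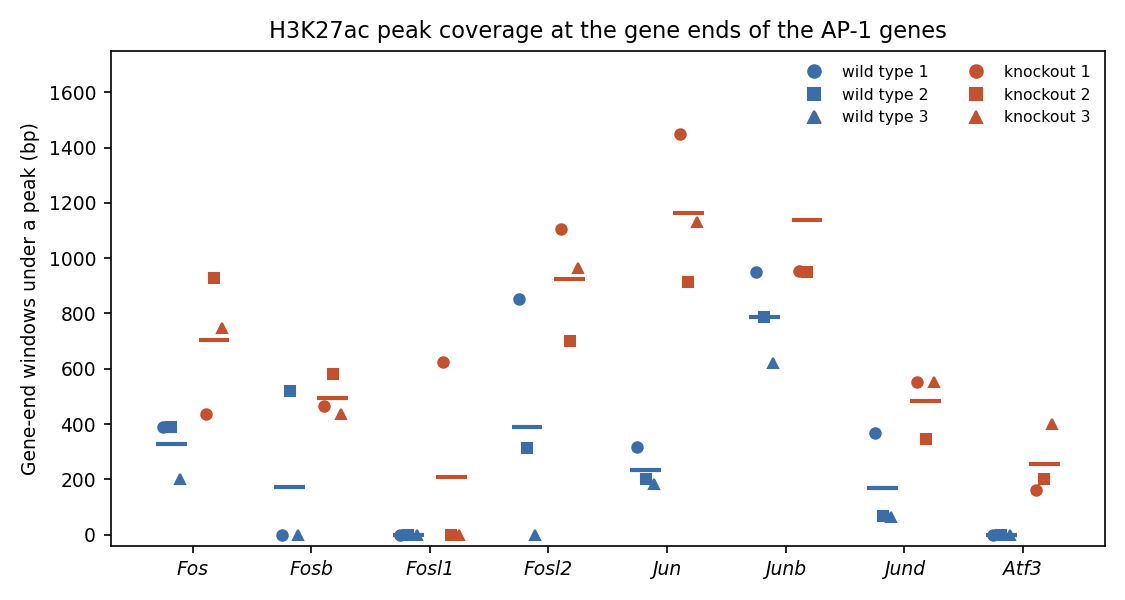
Base pairs under an H3K27ac peak in the windows within 1000 bp of the gene ends, for each AP-1 gene; points are libraries and bars are group means (n = 3). Groups are separate for Fos, Jun, Junb and Atf3 and overlap for Fosb, Fosl1, Fosl2 and Jund.

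Fos (chr12:85473890-85477274), the founding Fos family member and an immediate early gene, was marked at its start in all 6 libraries. The peak at the start covered 390, 390 and 200 bp in wild-type libraries 1 to 3 and 437, 929 and 747 bp in knockout libraries 1 to 3. Its summit fold over the local background was 3.45, 3.15 and 3.09 against 4.87, 4.69 and 6.02. All knockout values exceeded all wild-type values by both measures. The difference in coverage was 378 bp (exact p = 0.1, Benjamini-Hochberg adjusted p = 0.198 over all genes tested).

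The peak also ranked higher within the knockout lists. It stood at the top 42.3%, 45.1% and 70.5% of the wild-type lists and at the top 6.29%, 13.9% and 3.42% of the knockout lists, ordered by p-value. None of the 3 wild-type peaks had a q-value of 0.05 or less, and all 3 knockout peaks did. Of the promoter window whose upstream part is printed above, peaks covered 249, 239 and 147 of 300 bp in wild-type and 268, 300 and 300 bp in knockout libraries.

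The Fos flanks held several recurrent regions, and the whole locus was covered over 1156, 1610 and 1397 bp in wild-type and 4692, 3477 and 5108 bp in knockout libraries. Regions centred 18.5 kb and 5.1 kb upstream had a peak in all 6 libraries. A region 15.7 kb downstream of the start was weak in wild-type libraries 2 and 3, with folds of 2.84 and 2.22 and q-values above 0.05, and absent from wild-type library 1; the knockout folds there were 3.70, 6.87 and 3.55. Next to it, 16.7 kb downstream (chr12:85490177-85490994), a region had a peak in all 3 knockout libraries, over 324, 200 and 818 bp, and in no wild-type library. These peaks were also weak, with folds of 3.01, 2.69 and 3.47, and only that of knockout library 3 had a q-value of 0.05 or less. With peaks up to 500 bp apart joined, this region no longer had a knockout-only pattern. Further upstream, regions 36.2 kb and 29.1 kb from the start each had peaks in knockout libraries 1 and 3 only.

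**Figure D3:**
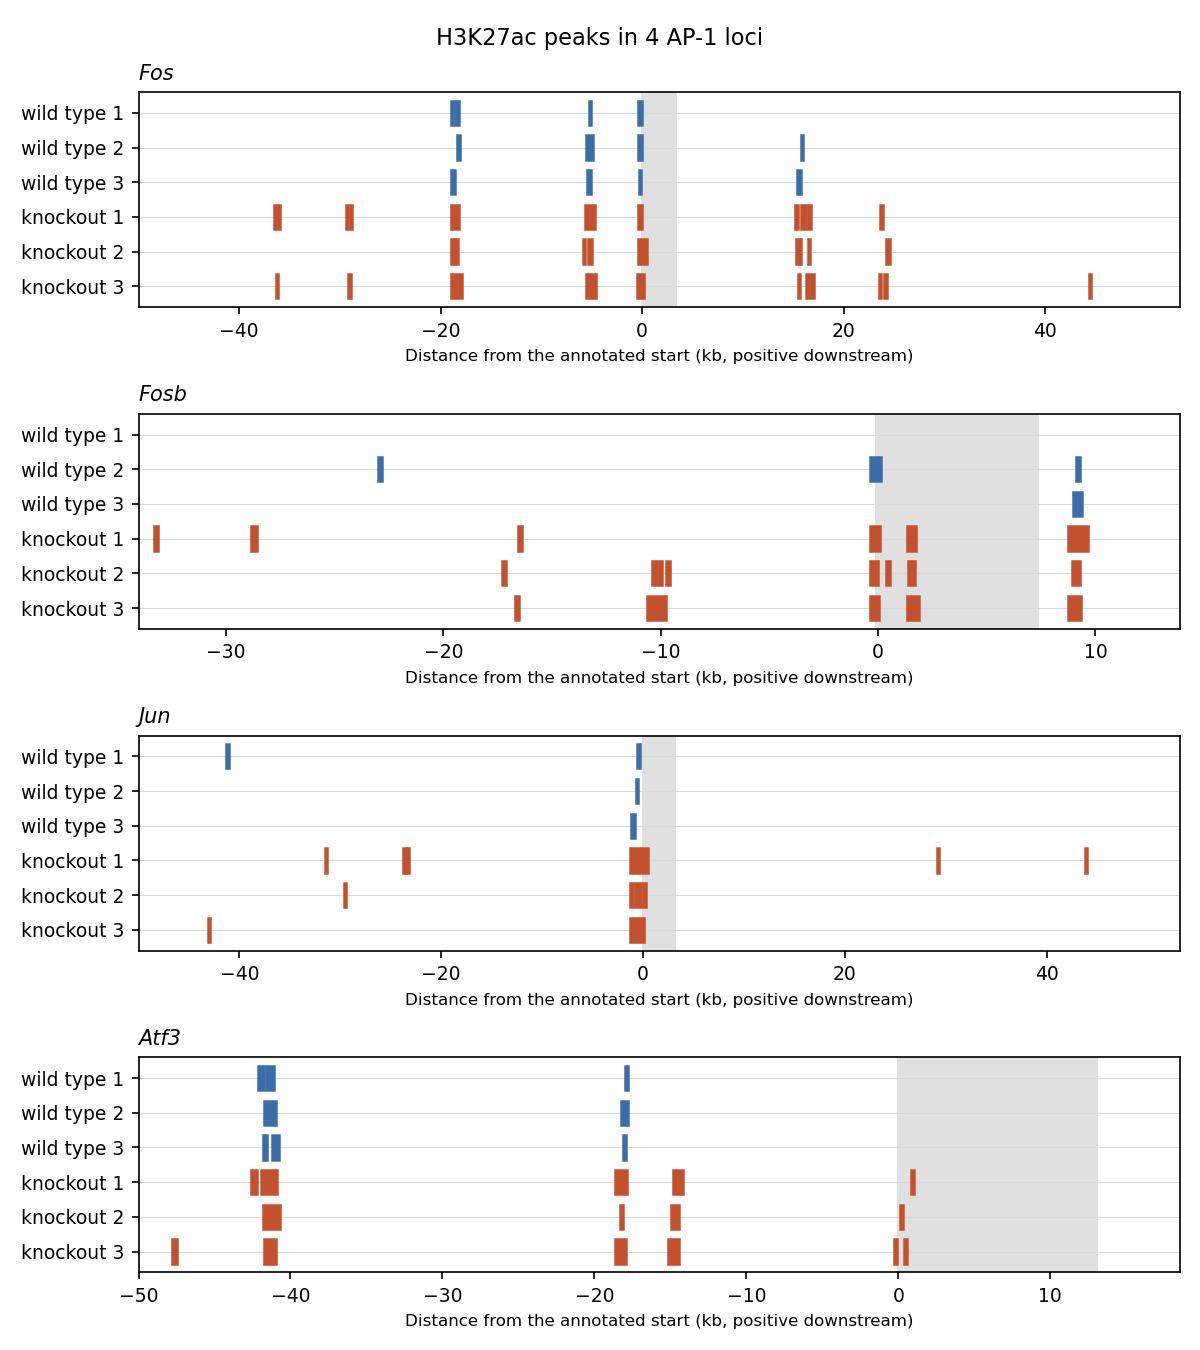
H3K27ac peaks in the Fos, Fosb, Jun and Atf3 loci by library, against distance from the annotated start in kb (positive downstream); grey marks the gene and each box a peak, drawn with a thin outline so that short peaks show. Extra knockout peaks are visible 16.7 kb downstream of the Fos start, 1.6 kb inside Fosb and 14.7 kb upstream of Atf3, where no wild-type library has one.

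Fosb (chr7:19302696-19310118), a Fos family member whose truncated splice form lacks the transactivation domain, was marked at its start in all 3 knockout libraries and in wild-type library 2. Gene-end coverage was 0, 520 and 0 bp in wild-type libraries 1 to 3 and 466, 580 and 436 bp in knockout libraries 1 to 3. Wild-type library 2 fell inside the knockout range, and the difference of 321 bp gave an exact p = 0.3 (adjusted p = 0.452). Without wild-type library 2 the difference was 494 bp, and the Fosb ends had a peak in every knockout and no wild-type library.

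In knockout library 1 the Fosb start peak was among the strongest of the library. Its fold was 11.2, rank 183 of 50453 peaks, and its summit held 28 fragments. The fold was 6.32 in knockout library 2, 5.12 in knockout library 3 and 4.42 in wild-type library 2, where the summit held 6 fragments. Inside the gene, 1.6 kb downstream of the start (chr7:19308169-19308728), a further region had no wild-type peak. It was covered over 427, 325 and 539 bp in knockout libraries 1 to 3, with folds of 3.82, 3.41 and 3.23. Only the peak of knockout library 1 there had a q-value of 0.05 or less. The Fosb locus was covered over 0, 920 and 409 bp in wild-type and 2489, 2129 and 2669 bp in knockout libraries, a ratio of the means of 5.48, the highest of the 7 genes with any wild-type coverage.

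Fosl2 and Fosl1 encode Fra-2 and Fra-1, Fos proteins without the strong transactivation domain of c-Fos. Fosl2 (chr5:32136472-32157840) had gene-end coverage of 851, 312 and 0 bp in wild-type and 1106, 699 and 964 bp in knockout libraries. Wild-type library 1 exceeded knockout library 2, and the difference of 535 bp gave an exact p = 0.2 (adjusted p = 0.324). Without wild-type library 3 the difference was 342 bp. Fosl2 was the only AP-1 gene whose locus coverage overlapped between groups, at 1702, 773 and 917 bp against 2897, 1450 and 2747 bp.

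Fosl1 (chr19:5447698-5455938) was the least marked of the 8 genes. Its gene ends had a peak only in knockout library 1, over 624 bp with a fold of 3.45 (exact p = 1), so the difference of 208 bp was 0 bp without that library. Its locus had no wild-type peak and was covered over 1304, 435 and 686 bp in knockout libraries 1 to 3. These peaks clustered about 14 kb from the lower end of the gene (chr19:5432836-5433964), but at an overlap of 1 bp they formed separate regions, none of them shared by all 3 knockout libraries. On the upper side the Fosl1 locus ended at the gene itself, because Ccdc85b overlaps that end.

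Jun (chr4:95049036-95052222), which encodes the main Jun partner of Fos, showed the largest gene-end difference of the 8 genes. Coverage was 316, 201 and 184 bp in wild-type libraries 1 to 3 and 1450, 914 and 1129 bp in knockout libraries 1 to 3. The means were 234 ± 71.8 bp and 1164 ± 270 bp (SD, n = 3 each), a difference of 931 bp (exact p = 0.1, adjusted p = 0.198). Short wild-type peaks lay upstream of the start, and 1 broad peak in knockout libraries 1 and 3 and 3 peaks in knockout library 2 spanned the same region and the start.

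The fold at Jun changed less than the width. It was 3.13, 3.72 and 3.49 in wild-type and 3.80, 3.87 and 4.12 in knockout libraries. The 300 bp promoter window was not touched by any wild-type peak and was covered over 300, 93 and 300 bp in the knockout libraries. Jun was the only 1 of the 5 AP-1 promoter windows with any peak that was touched in every knockout and no wild-type library, a pattern seen in 12% of the 9247 windows with a peak in any library.

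Junb (chr8:84976909-84978748) had the highest mean gene-end coverage of the 8 genes, 962 bp over the 6 libraries, and the smallest relative difference. Coverage was 949, 788 and 619 bp in wild-type and 954, 950 and 1509 bp in knockout libraries. The groups were separated by 1 bp, between wild-type library 1 and knockout library 2 (exact p = 0.1, adjusted p = 0.198), and in the lists of equal length the difference turned to -51.7 bp. It was 352 bp with all libraries and 167 bp without knockout library 3. The region at the downstream end of the gene had a peak in all 6 libraries and the one 1.1 kb upstream of the start in all but wild-type library 3; no peak touched the 300 bp promoter window.

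Junb was the gene where fold and fragment number moved in opposite directions. At the region 2.1 kb downstream of its start the fold was 2.90, 3.86 and 3.57 in wild-type and 2.71, 2.11 and 2.54 in knockout libraries. The summit there held 11, 15 and 13 fragments in wild-type and 34, 18 and 38 in knockout libraries. The local background that divides them was 3.14, 3.14 and 2.92 fragments against 11.9, 8 and 14.3. Thus the fold was lower in every knockout library while both the summit and its surroundings held more fragments. The locus is the shortest of the 8, 13964 bp between the neighbouring genes Prdx2 and Hook2.

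Jund (chr8:70697739-70700616) was marked in all 6 libraries inside the gene. Gene-end coverage was 369, 67 and 65 bp in wild-type and 552, 344 and 552 bp in knockout libraries. Wild-type library 1 exceeded knockout library 2, and the difference of 316 bp gave an exact p = 0.2 (adjusted p = 0.324). Over the whole recurrent region, 1.1 kb downstream of the annotated start, coverage was 369, 509 and 200 bp against 1230, 611 and 636 bp, without overlap. Knockout library 2 had the strongest peak there, with a fold of 5.59 against 3.13 and 3.28 in knockout libraries 1 and 3.

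Atf3 (chr1:191170296-191183333), which encodes a stress-induced factor of the ATF family, was the only AP-1 gene with a gene-end peak in every knockout and no wild-type library, 1 of 8, beside 8.1% of all genes tested. The covered length was 162, 200 and 400 bp in knockout libraries 1 to 3 (exact p = 0.1, adjusted p = 0.198). These were weak peaks of 200 bp with folds between 3.16 and 3.68 and summits of 4 to 6 fragments, and no peak of 1 library overlapped a peak of another. With a window of 500 bp, and in lists of equal length, knockout library 1 no longer had a gene-end peak at Atf3.

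The upstream flank of Atf3 carried stronger signals than its start. A region 41.4 kb upstream (chr1:191224022-191225441) had a peak in all 6 libraries, with folds of 3.37, 3.57 and 3.01 in wild-type and 6.28, 6.34 and 5.99 in knockout libraries. It stood at the top 34.9% to 74.2% of the wild-type lists and the top 3.04% to 7.77% of the knockout lists. A region 14.7 kb upstream (chr1:191197520-191198460) was covered over 630, 540 and 680 bp in knockout libraries, with folds of 4.95, 3.81 and 3.74, and had no wild-type peak. It was the only region of the AP-1 loci to keep that pattern in lists of equal length. The next protein-coding gene on that side, Nenf, lies 123453 bp from Atf3.

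Together the peaks of the 8 loci formed 62 regions, merged across libraries where they overlapped by at least 1 bp. Of these, 32 (51.6%) had a peak in 1 library only, compared with 73.5% of all 104190 regions of the genome. No wild-type library had a peak in 39 regions (62.9%, against 51.4% of all regions), and no knockout library in 4 (6.45%, against 30.6%). In no AP-1 region did all 3 wild-type and no knockout library have a peak.

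All 3 knockout libraries had a peak in 18 AP-1 regions, and 3 of these had no wild-type peak: those 16.7 kb downstream of the Fos start, inside Fosb and 14.7 kb upstream of Atf3. Of all regions of the genome shared by the knockout libraries in this way, 18.9% had no wild-type peak, so the AP-1 share was near the background. Of the 3, only the Atf3 region had a q-value of 0.05 or less in every knockout library.

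A separate set of 8 regions had a peak in all 6 libraries, and 4 of them were covered over more bp in every knockout library, beside 59.4% of all such regions. Summit height, the fragments at the strongest summit divided by the genome background of its library, was higher in every knockout library in all 8, beside 84.2% of all such regions. The fold over local background was higher in every knockout library in 3 of the 8, beside 33% of all such regions. By locus, 7 of 8 AP-1 loci (all but Fosl2) had more covered bp in every knockout library, beside 68.7% of the 12185 loci with a peak in every knockout library. Each of those 7 gave an exact p = 0.1 (adjusted p = 0.211 over all loci).

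The region 41.4 kb upstream of Atf3 had the largest ratio of mean heights of these 8, 3.28, with 8.87 ± 1.03 times the genome background in wild-type and 29.1 ± 5.75 in knockout libraries (SD, n = 3 each). The Fos start had 10.1 ± 0.141 and 29.1 ± 5.73, a ratio of 2.87, and the Jund region 10.8 ± 1.10 and 26.3 ± 8.93, a ratio of 2.44. The regions 18.5 kb upstream of Fos and 18.2 kb upstream of Atf3 had ratios of 1.41 and 1.31. The downstream side of Junb was the highest in both groups, at 24.6 ± 2.23 and 43.6 ± 4.22. The median ratio was 1.84 over the 8 AP-1 regions and 1.92 over the 5473 regions of the genome with a height in all 6 libraries.

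**Figure D4:**
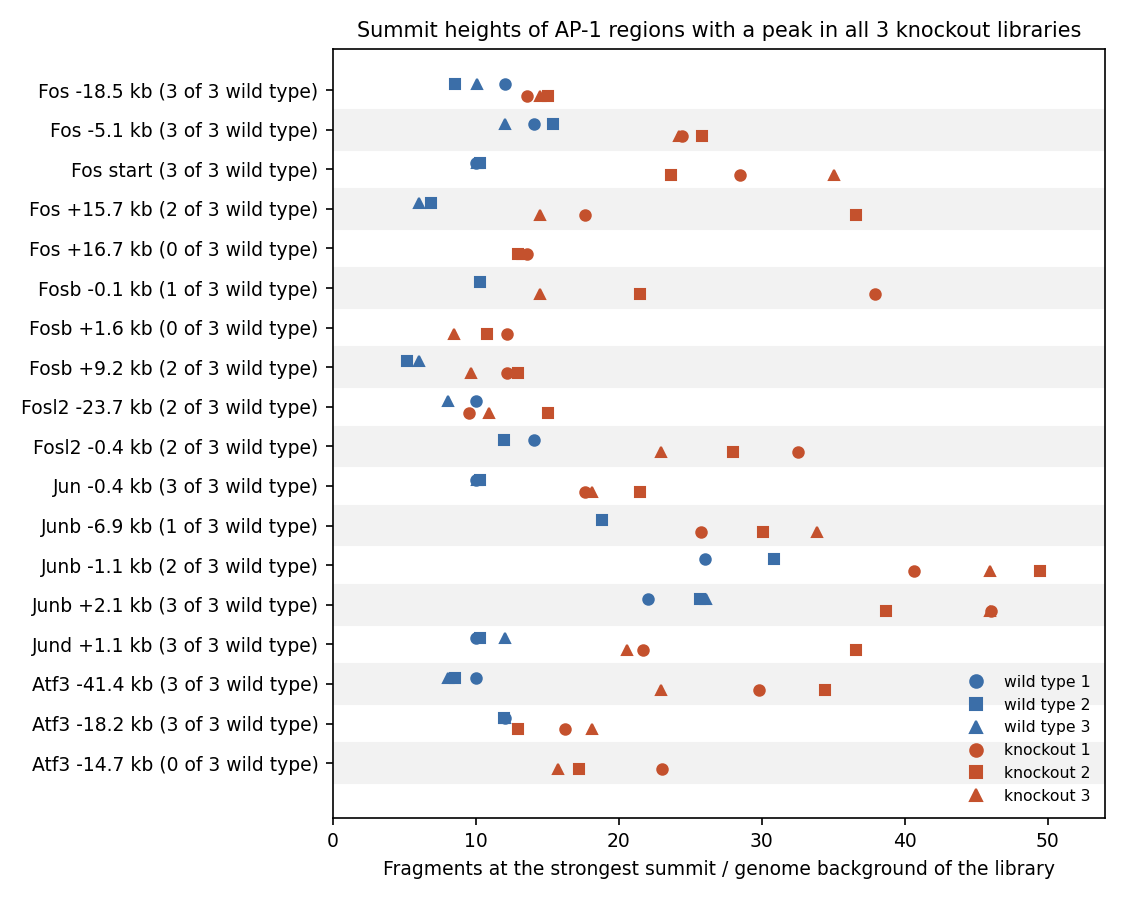
Summit height, as fragments at the strongest summit over the genome background of the library, for the 18 AP-1 regions shared by all 3 knockout libraries; labels give the distance of the region from the gene start and how many wild-type libraries had a peak. Points are libraries with a peak. Heights are separate between groups in all 8 regions with a peak in all 6 libraries, and the Junb regions are the highest in wild type.

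Most wild-type peaks at the AP-1 gene ends had a q-value above 0.05. Counting only peaks at or under that value, Fos, Fosl2, Jun and Jund had a gene-end peak in every knockout and no wild-type library, 4 of the 7 AP-1 genes with such a peak, beside 29% of all genes. Junb passed in all 6 libraries, Fosb in wild-type library 2 and all 3 knockout libraries, Atf3 in knockout library 3, and Fosl1 in none. Over the whole lists, 15.7% to 16.7% of wild-type peaks and 43.9% to 66.6% of knockout peaks had a q-value of 0.05 or less.

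Genes around AP-1 were counted in the same way. Over all genes, 27.5% were marked on average in wild-type and 42.0% in knockout libraries, a ratio of 1.53. Of 13 other basic leucine zipper genes that can partner AP-1 proteins, 5.67 ± 0.577 were marked per wild-type and 8 ± 1 per knockout library (SD, n = 3 each). Maff, which encodes a small Maf protein, was the only one of them with a peak in every knockout and no wild-type library, 1 of the 9 with any gene-end peak, beside 8.1% of all genes. Of 10 kinases upstream of AP-1, 5 ± 2 and 9 ± 1 were marked. In that list only Mapk8, which encodes JNK1, a kinase that phosphorylates Jun, had a peak in every knockout and no wild-type library, over 522, 200 and 842 bp. That is 1 of 10, near the 8.1% of all genes. The Mapk8 folds were 3.72, 3.16 and 4.59, and in its weakest library it stood at the top 72.1% of the list.

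Of 8 factors known to act at AP-1 promoters, 3.33 ± 0.577 were marked per wild-type and 4.67 ± 1.53 per knockout library. This and the counts below stand beside 27.5% and 42.0% of all genes. Creb1 and Elk4, which encode a cyclic AMP response factor and a partner of serum response factor, were marked in all 6 libraries. Of 12 AP-1 target genes, 4.67 ± 0.577 and 6.33 ± 0.577 were marked. Il6, an inflammatory cytokine gene, had a peak in every knockout and no wild-type library, over 169, 200 and 228 bp. That is 1 of the 8 targets with any gene-end peak, beside 8.1% of all genes. The Il6 folds were 3.07, 3.05 and 3.88, and in its weakest library it stood at the top 77.3% of the list. Of the 11 early response genes, 6 ± 1 and 7.33 ± 1.15 were marked, among them Btg2 and Nr4a2 in all 6 libraries. More covered bp in every knockout library were found in 6 of the 9 partner genes with any gene-end peak, 7 of 10 kinases, 2 of 7 promoter factors, 6 of 8 targets and 4 of 9 early response genes, beside the 50.6% of all genes.

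The labelled cell type was only partly reflected at gene ends. Of 11 stem cell markers, 4, 4 and 4 were marked in wild-type and 5, 3 and 3 in knockout libraries; Runx1, Lyl1 and Tal1 were marked in all 6, and Gata2, Hlf, Mecom, Erg and Cd34 in none. Of 8 myeloid markers, 3, 4 and 2 were marked in wild-type and 6, 3 and 4 in knockout libraries, and of 7 erythroid markers 3, 4 and 3 against 4, 4 and 4. Of 5 megakaryocyte markers, 5, 3 and 2 were marked in wild-type and 3, 2 and 3 in knockout libraries. B cell, T cell and stromal lists gave 0 to 3 of 6, 1 to 2 of 6 and 1 to 2 of 6. Of all genes, 27.5% were marked on average in wild-type and 42.0% in knockout libraries. Immediate early genes are expressed in many blood cell types; the part of cell composition in the AP-1 differences was not tested.

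The genes whose gene-end coverage was most like that of Junb, among 3711 genes marked in all 6 libraries, were Cep295, Dap3 and Cnot4. Their mean absolute differences from Junb over the 6 libraries were 58.7, 82.7 and 87.0 bp.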

How the data were processed

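Peak lists of 3 wild-type and 3 Ppp2ca-deficient libraries were analysed. MACS2 is the peak caller among the tools in the submitters' processing notes, which also name BWA, Trimmomatic, HOMER, ChIPseeker and deepTools, with GRCm38/mm10. The sources used here give no versions, parameters or control library. The lists were deposited per library, not pooled. The authors' deposited ratio is the summit fold over local background, with its deposited −log10 p-value and its deposited −log10 q-value; the deposited score was not used. Ranking and filtering stayed within a list, and the lowest −log10 p-value was 2.01 in each list.

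Pileup and local background were solved from fold and p-value. This succeeded for 99.997% to 100% of the peaks with a −log10 p-value under 15. The median summits and the genome background also rest on these peaks. The commonest background per list stood for the genome background and for depth. Genes came from RefSeq (GRCm38.p6); exons and introns were not analysed here. Base pairs under peaks within 1000 bp of either gene end were tested per gene by exact two-sided permutation of the 20 assignments of libraries, Benjamini-Hochberg adjusted over 11084 genes (Python 3.11.15, NumPy 2.4.6, pandas 2.3.3, SciPy 1.17.1). Scripts were tested on simulated peaks. Named genes were all members, genes of the other lists with a peak in every library of 1 group and none of the other (otherwise 2 marked in all 6), neighbouring genes and the 3 genes most like Junb. One planned stem cell marker is not reported here. The members and lists were chosen with earlier results of these data known. Alternatives changed the q threshold, list length, window, flank, merging and libraries.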

Additional observations from a re-analysis of the deposited data

How the results depend on the processing

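Differences here are knockout minus wild-type means. At a q-value of 0.05 or less the difference in marked AP-1 genes was 5, with 2718 genes and 4 AP-1 genes marked in every knockout and no wild-type library, and 4713 such regions in all and 9 in the AP-1 loci. At a −log10 q of at least 5, 1659 genes and 0 AP-1 genes had more gene-end coverage in every knockout library. At that threshold 1364 genes and 0 AP-1 genes were marked in every knockout and no wild-type library. The differences in the loci were 4.33 peaks and 3082 bp, and the regions numbered 1344 and 1. No wild-type library then had a peak in the AP-1 loci. Of all 21883 genes, 233, 274 and 182 were then marked at a gene end in wild-type libraries 1 to 3. In knockout libraries 1 to 3, 4200, 2040 and 4700 genes were marked. In lists of equal length 2 AP-1 genes (Fos and Jun) had more coverage in every knockout library and 0 were marked in knockout libraries alone, the differences were 9 peaks and 8320 bp, the regions numbered 1386 and 1, and Junb turned to -51.7 bp. A window of 500 bp gave 2 and 0 AP-1 genes. A flank of 25 kb gave a difference of 17 peaks, and flanks not shortened at the next gene gave 34.3 peaks, 22221 bp and 6 regions. Joining peaks up to 500 bp apart, chosen after seeing the data, also gave 6 regions, among them the cluster near Fosl1.

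Leaving out 1 library at a time, genes marked in knockout libraries alone ranged from 1036 to 1563 and AP-1 genes from 1 to 2, regions from 3780 to 5639 and those in the AP-1 loci from 3 to 8; genes with more coverage ranged from 5992 to 7409 and AP-1 genes from 4 to 6. With all 6 libraries, 898 genes and 1 AP-1 gene were marked in knockout libraries alone, with 2824 regions and 3 in the loci. More coverage in every knockout library was then found in 5607 genes and 4 AP-1 genes. A gene-end call asks for every library, so leaving 1 out can only keep or raise the gene counts. Without wild-type replicate 2 the values were 1563 genes, 2 AP-1 genes (Fosb was added) and 5 AP-1 regions. Without knockout replicate 1 they were 4302 regions and 5 in the loci, without knockout replicate 2, 5639 and 8, and without knockout replicate 3, 4478. No pairing by shared replicate number was detected, as the deviations of such libraries correlated at 0.0168, 0.00692 and -0.00193. These values cannot settle whether libraries with the same number were handled together. With the replicate number as a block, 6567 genes and 7 AP-1 genes were higher in every pair, with a smallest exact p of 0.25. Over 80 alternatives for single AP-1 genes, 76 differences were positive. These alternatives reuse the same 6 libraries, and those with the block repeat the main differences, so they are not independent. The same count was not made over all genes.

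Limits: wild-type summits hold few fragments, so presence or absence of a peak there rests on a few fragments, and 3 against 3 libraries cannot give a p under 0.1. Read depth is known only through the genome background.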
